A study of Mus musculus with 19 samples.

Results

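The vitamin A genes of the mouse liver were followed through lactation and after weaning. The 9 genes were chosen by name, for what they do in retinoid metabolism, from the 51826 gene entries of the expression table: Rbp4, Lrat, Dhrs3, Retsat, Aldh1a1, Aldh1a7, Cyp26a1, Cyp26b1 and Bco2. The samples were flash-frozen livers of 19 female Balb/c mice, 1 library for each mouse, all with an age of 12 weeks in the labels. There were 7 nulliparous mice (NUL), 6 mice at lactation day 10 (LAC) and 6 mice at involution day 6 (ID6), the days after weaning, and no transgene, diet or drug is named for any group. The methods state that caudate lobes were frozen and name 2 vendors of mice, without saying which mouse came from which. Expression was deposited as TPM, the share of a mouse's transcripts that belongs to a gene after correction for length, which holds no information on read depth.

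The liver holds most of the body's vitamin A. Hepatocytes take up retinol and hand it to stellate cells, where lecithin retinol acyltransferase (Lrat) turns it into retinyl ester for storage, and retinol leaves the liver bound to retinol binding protein 4 (Rbp4) and transthyretin (Ttr). Inside cells, retinol is oxidized to retinal by retinol dehydrogenases, retinal is oxidized to retinoic acid by Aldh1a enzymes, and retinoic acid is broken down by Cyp26 enzymes. Dhrs3 works against this flow by reducing retinal to retinol. Retsat adds hydrogen to retinol to make dihydroretinol, and Bco2 cleaves carotenoids, the plant precursors, off centre. Retinoic acid acts through nuclear receptors that bind direct repeats of a short half-site, and Cyp26a1 is a well known target gene of these receptors.

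Upstream sequence was available for all 9 genes, in 14 windows of RefSeq on GRCm38.p6 that reach from 250 bases before to 50 bases after a start site. The 3 sequences shown here are those that bear on the results below: the retinoic acid target Cyp26a1, and the neighbouring genes Aldh1a1 and Aldh1a7. A search of both strands for half-sites of the form AGGTCA, or with AGTTCA, or with GGGTCA, or with GGTTCA, repeated in the same direction with a spacing of 1, 2 or 5 bases (DR1, DR2, DR5), found 1 match among the members, a DR5 of AGTTCA read on the opposite strand of the Cyp26a1 window, at chr19:37697776-37697792, from 32 to 16 bases before the start site. DR5 matches lay in 32 of 32851 such windows of all genes (0.0974%), DR2 matches in 0.268% and DR1 matches in 0.222%. A match of letters is not a measured binding site. In the Cyp26a1 sequence the capitals mark the DR5, and the bases are chr19:37697558-37697797 of the plus strand.
Cyp26a1: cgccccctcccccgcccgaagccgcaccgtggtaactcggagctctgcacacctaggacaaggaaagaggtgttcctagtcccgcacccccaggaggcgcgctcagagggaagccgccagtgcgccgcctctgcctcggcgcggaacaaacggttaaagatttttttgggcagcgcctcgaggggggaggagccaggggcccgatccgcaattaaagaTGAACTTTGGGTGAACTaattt

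Aldh1a1 and Aldh1a7 are paralogs that lie 49487 bases apart on chromosome 19, on opposite strands. Their upstream windows, chr19:20601718-20601960 on the plus strand and chr19:20727563-20727806 on the minus strand, share an identical run of 65 bases, which is shown in capitals. The Aldh1a1 window belongs to the second of its start sites, inside the span of the longer transcripts of the gene and outside their exons.
Aldh1a1: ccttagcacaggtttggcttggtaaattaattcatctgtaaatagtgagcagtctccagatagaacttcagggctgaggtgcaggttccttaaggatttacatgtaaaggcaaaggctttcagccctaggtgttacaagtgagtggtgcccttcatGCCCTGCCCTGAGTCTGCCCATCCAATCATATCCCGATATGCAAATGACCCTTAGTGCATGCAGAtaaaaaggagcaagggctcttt
Aldh1a7: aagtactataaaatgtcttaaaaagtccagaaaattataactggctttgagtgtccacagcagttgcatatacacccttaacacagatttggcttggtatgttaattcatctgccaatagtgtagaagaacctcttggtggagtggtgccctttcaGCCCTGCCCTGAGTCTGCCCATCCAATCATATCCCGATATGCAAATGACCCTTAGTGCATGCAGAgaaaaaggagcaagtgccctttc

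Animal numbers run from 1 to 240, and the livers separated by this number in a way the stages do not explain. Mice NUL_1, NUL_4, NUL_13, LAC_36, LAC_102 and LAC_133 are numbered under 200, and the other 13 mice, among them all 6 at involution, are numbered 200 and above. No source used here calls these ranges a batch. With stage in the fit, 7 of the 9 members were higher in mice numbered under 200, where 9.11% of all genes tested were higher and 16.5% lower. Differences of the members are therefore given also within a range, and a difference between involution mice and the lower-numbered mice cannot be told apart from the range. The test was limma-trend on log2(TPM + 1) for 16230 genes whose mean over all mice reached 0.1 TPM, a filter that all 9 members passed. A gene is said to pass at an adjusted p under 0.05 and is called, by the thresholds of the study's methods, if its log2 change is also at least 1 in size. On the TPM scale the median of all genes shifted by 0.10 on the log2 scale between involution and lactation, and 2936 genes passed as higher and 767 as lower. After median-ratio scaling the median was -0.01 and the counts were 1302 and 1354. For lactation against nulliparous they were 441 and 1053, and 745 and 735 after that scaling, and for involution against nulliparous 559 and 148, and 165 and 214. Shares of all genes given below are on the TPM scale unless a scaling is named. Single results after median-ratio scaling are given for members only.

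Rbp4 was the most abundant member and its TPM differed little across the mice. It encodes the carrier that takes retinol out of the liver, lies at chr19:38116629-38125281 (GRCm38) on the minus strand, and ranked 33 among all genes tested. Nulliparous livers held 3860 to 5255 TPM with a median of 4138, lactating livers 3455 to 4466 TPM with a median of 3939, and involution livers 3143 to 4654 TPM with a median of 4142, so the 3 stages overlapped. The mean was 4299 ± 516 TPM (SD, n = 7) in nulliparous, 3964 ± 374 (n = 6) in lactating and 4063 ± 592 (n = 6) in involution mice. The log2 difference between lactation and nulliparous was -0.11 (SE 0.10, adjusted p = 0.550), and between involution and lactation 0.03 (SE 0.11, adjusted p = 0.881), with 95% intervals of -0.33 to 0.10 and -0.20 to 0.25. Neither passed, and the sign of the second turned under other scalings (log2 -0.14 after median-ratio scaling). Among mice numbered 200 and above, the 3 lactating livers (3455, 3729 and 3792 TPM) lay below the 4 nulliparous livers (3860 to 4267 TPM), with a two-sided exact permutation p of 0.0286, the smallest that 3 against 4 mice allow, while limma-trend on the mice of that range did not pass it (adjusted p = 0.643).

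Lrat, the enzyme that makes the stored ester, was low in whole liver and its stage differences did not pass in any comparison. It lies at chr3:82892579-82903973 on the minus strand. Its level was 1.31 to 2.81 TPM (median 2.09) in nulliparous livers, 1.21 to 2.27 TPM (median 2.02) in lactation and 1.72 to 2.36 TPM (median 2.12) after weaning. All 3 stages overlapped, and the lowest and the highest value both belonged to mice numbered under 200. The log2 difference between lactation and nulliparous was -0.12 (SE 0.12, adjusted p = 0.590) and that between involution and lactation was 0.11 (SE 0.12, adjusted p = 0.550). Within the ranges the lactation difference was -0.27 (adjusted p = 0.402) under 200 and 0.024 (adjusted p = 0.971) at 200 and above.

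Lrat is expressed in the liver mainly by stellate cells, so the level of 15 other stellate cell markers stands beside it. Their summed TPM was 293 to 416 in nulliparous mice, 234 to 276 in lactating mice and 319 to 388 in involution mice, so the lactating livers lay below every other liver. In lactation 9 of the 15 fell, where 6.49% of all genes did, and the other 6 did not pass, with a median log2 difference of -0.45, against -0.03 over all genes. Under 200 it was 2 of the 15 that fell (against 4.82%), with a median of -0.34, and at 200 and above 7 (against 4.58%), with a median of -0.49. Cygb (log2 -0.55, adjusted p = 0.00374), a globin of stellate cells, Hgf (-0.58, adjusted p = 4.37e-04), the hepatocyte growth factor, and Dcn (-0.53, adjusted p = 1.85e-04), a matrix proteoglycan, were among those that fell. At involution 8 of the 15 rose relative to lactation, where 18.1% of all genes did, and 7 (against 10.6%) among mice numbered 200 and above. In whole liver, fewer cells of a type and less RNA per cell cannot be told apart, and the part of this shift in the level of Lrat was not tested.

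**Figure D1:**
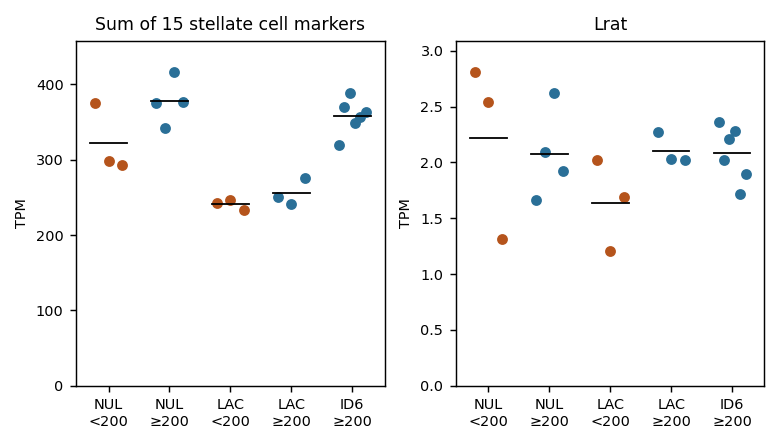
TPM per mouse of the 15 stellate cell markers summed and of Lrat in nulliparous (NUL), lactating (LAC) and involution (ID6) mice, split by animal number under 200 (orange) and 200 and above (blue), with a line at each mean and axes from 0. The marker sum of all 6 lactating livers (234 to 276 TPM) lies below that of every other liver, while Lrat overlaps across stages. Ecm1 and Dcn make up most of the sum.

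Among other genes of uptake, transport and storage, Pnpla3, a lipase that hydrolyses retinyl esters and triglycerides, rose by 2.04 on the log2 scale in lactation (SE 0.39, adjusted p = 0.00287), and in each range the lactating livers lay above the nulliparous ones (2.01 to 4.39 against 0.09 to 0.48 TPM under 200, and 12.9 to 14.7 against 0.93 to 2.88 TPM at 200 and above). Stra6l, also called Rbpr2, a receptor for Rbp4 in liver, fell in lactation by 0.33 on the log2 scale (adjusted p = 0.0205) and rose from lactation to involution by 0.44 (adjusted p = 0.00147). Its lactation difference passed at 200 and above (log2 -0.42, adjusted p = 0.00898) and not under 200 (-0.19, adjusted p = 0.186). Ttr did not pass between lactation and nulliparous over all mice (log2 -0.53, adjusted p = 0.153). It fell by 0.83 under 200 (SE 0.15, adjusted p = 0.00810), from 4951 to 6816 TPM in nulliparous to 3061 to 3451 TPM in lactating livers, and was 7338 to 7868 TPM in the 3 lactating livers at 200 and above (log2 -0.16, adjusted p = 0.574). Ttr rose by 0.72 from lactation to involution over all mice (SE 0.23, adjusted p = 0.0317), and among mice numbered 200 and above the difference was 0.13 (adjusted p = 0.519).

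Dhrs3, the retinal reductase, had its lowest mean at lactation day 10, and its lactation difference passed in mice numbered under 200. It lies at chr4:144892827-144928209 on the plus strand. Values were 122 to 200 TPM in nulliparous mice (median 151), 114 to 140 TPM in lactating mice (median 128) and 139 to 184 TPM in involution mice (median 158). Of the involution livers only ID6_232, at 138.5 TPM, was below any lactating liver, while nulliparous and lactating livers overlapped. The log2 difference between lactation and nulliparous was -0.28 (SE 0.11, adjusted p = 0.130) over all mice. Among mice numbered under 200 the 3 lactating livers (130 to 140 TPM) lay below the 3 nulliparous ones (178, 196 and 200 TPM), and Dhrs3 fell by 0.49 (SE 0.09, adjusted p = 0.00748). At 200 and above the difference was -0.15 (adjusted p = 0.304), and the difference between the ranges did not pass (0.33, SE 0.12, adjusted p = 0.267). From lactation to involution Dhrs3 was 0.32 higher over all mice (SE 0.12, adjusted p = 0.0589, exact permutation p of mean TPM 0.00649) and rose by 0.40 (SE 0.10, adjusted p = 0.0159) in the fit of mice numbered 200 and above, where the stages did not overlap. Leaving out ID6_232, NUL_1, NUL_4, NUL_226 or NUL_227 brought the adjusted p over all mice to 0.0416 to 0.0488, and after median-ratio scaling the difference was 0.15 (adjusted p = 0.542).

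Retsat, the retinol saturase, had its highest values in lower-numbered lactating mice and its lowest at involution. It lies at chr6:72598475-72608425 on the plus strand. In nulliparous mice it was 281, 388 and 377 TPM under 200 and 103, 155, 153 and 116 TPM at 200 and above. In lactating mice it was 495, 500 and 551 TPM under 200 and 140, 167 and 167 TPM at 200 and above, and in the 6 involution mice 57.8 to 110 TPM with a median of 73.7 TPM. Every involution liver was below every lactating liver. Retsat fell from lactation to involution by 1.89 on the log2 scale over all mice (SE 0.40, adjusted p = 0.00203), and by 1.04 (SE 0.21, adjusted p = 0.00459) among mice numbered 200 and above, where the exact permutation p was 0.0119, the smallest for 6 against 3 mice. Against nulliparous mice it fell by 1.36 (SE 0.38, adjusted p = 0.0496) over all mice, a result lost (adjusted p = 0.0503 to 0.115) without any 1 of NUL_1, NUL_4, NUL_13, NUL_221, LAC_36, LAC_240 or the 6 involution mice. In the fit of mice numbered 200 and above that difference was -0.76 (SE 0.19) and did not pass (adjusted p = 0.0934), with an exact permutation p of 0.0143 for 78.6 against 132 TPM. In lactation it rose by 0.57 (SE 0.16, adjusted p = 0.0493) among mice numbered under 200, with no overlap, and at 200 and above it was 0.28 higher with overlap (adjusted p = 0.322). An unclassified transcript, Gm45053, overlaps Retsat by 2499 bases on the opposite strand at up to 1.21 TPM, and whether the counting used strand is not given in the sources used here.

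Among mice numbered 200 and above, the paralogs Aldh1a1 and Aldh1a7 both rose in lactation and fell from lactation to involution. Aldh1a1 (chr19:20492715-20643465, plus strand) oxidizes retinal to retinoic acid, and Aldh1a7 (chr19:20692953-20727562, minus strand) is its close rodent relative. Whether Aldh1a7 acts on retinal was not measured here. In nulliparous mice Aldh1a1 was 760, 1118 and 1056 TPM under 200 and 204, 189, 126 and 171 TPM at 200 and above. In lactating mice it was 1007, 1060 and 1055 TPM under 200 and 326, 284 and 287 TPM at 200 and above, and in involution mice 114 to 151 TPM (median 128). Within the higher numbers every lactating liver was above every nulliparous liver, and every involution liver was below every lactating liver.

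Over all mice Aldh1a1 did not pass between lactation and nulliparous (log2 0.64, SE 0.51, adjusted p = 0.501), and its level in mice numbered under 200 was 4.50 times that at 200 and above on the scale of TPM + 1 (adjusted p = 7.23e-07). In mice numbered 200 and above Aldh1a1 rose in lactation by 0.81 (SE 0.16, adjusted p = 0.0120). Under 200 the difference was 0.11 (SE 0.17, adjusted p = 0.743). The difference between these lactation changes was 0.70 (SE 0.23) and did not pass (adjusted p = 0.243). From lactation to involution Aldh1a1 fell by 2.10 over all mice (SE 0.53, adjusted p = 0.00794) and by 1.20 (SE 0.13, adjusted p = 1.07e-04) among mice numbered 200 and above, with means of 299 ± 23.3 TPM (n = 3) in lactation and 129 ± 12.97 TPM (n = 6) at involution.

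Aldh1a7 rose in lactation in both ranges. It was 175 to 206 TPM in nulliparous and 270 to 300 TPM in lactating mice under 200, and 73.5 to 120 TPM in nulliparous and 212 to 257 TPM in lactating mice at 200 and above, so all 6 lactating livers lay above all 7 nulliparous livers. The rise was 1.001 on the log2 scale (SE 0.21, adjusted p = 0.00507, exact permutation p of mean TPM 0.00117) over all mice, 0.57 (SE 0.14, adjusted p = 0.0314) under 200 and 1.29 (SE 0.13, adjusted p = 3.91e-04) at 200 and above, and the difference between ranges was 0.73 (SE 0.20, adjusted p = 0.185). With single mice left out the rise over all mice was 0.87 to 1.11 and passed in each of the 19 fits, but it lies at the threshold of 1 and was not called in 7 of them (without NUL_220, NUL_221, NUL_226, NUL_227, LAC_36, LAC_102 or LAC_133). At involution Aldh1a7 was back to 66.7 to 128 TPM, below every lactating liver, a fall of 1.28 (SE 0.22, adjusted p = 3.43e-04) from lactation over all mice and of 1.16 (SE 0.19, adjusted p = 0.00138) at 200 and above. Against nulliparous mice of that range it did not pass (log2 0.14, 95% interval -0.24 to 0.51).

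The longest transcripts of Aldh1a1 and Aldh1a7 are identical at 89.0% of 2042 aligned bases, which matters because reads that fit both are divided between them by the authors' software. Of all stretches of 50 bases in Aldh1a1, 6.54% also occur in Aldh1a7, while no stretch of 150 bases, the read length, is shared. The sum of both genes was 655 ± 494 TPM in nulliparous, 929 ± 431 TPM in lactating and 237 ± 28.4 TPM in involution mice. Over all mice it differed between involution and lactation (two-sided exact permutation p = 0.00216, the smallest for 6 against 6 mice). Between lactation and nulliparous the sum over all mice did not differ past 0.05 (exact permutation p = 0.300). That test pooled both ranges, and the sum was not tested within a range. At 200 and above both genes, and so their sum, were higher in every lactating liver than in every nulliparous liver. Aldh1a7 made up 13.5% to 19.8% of the sum in nulliparous mice under 200, 20.3% to 22.9% in lactating mice under 200, and 33.8% to 37.1% and 42.5% to 47.5% at 200 and above.

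**Figure D2:**
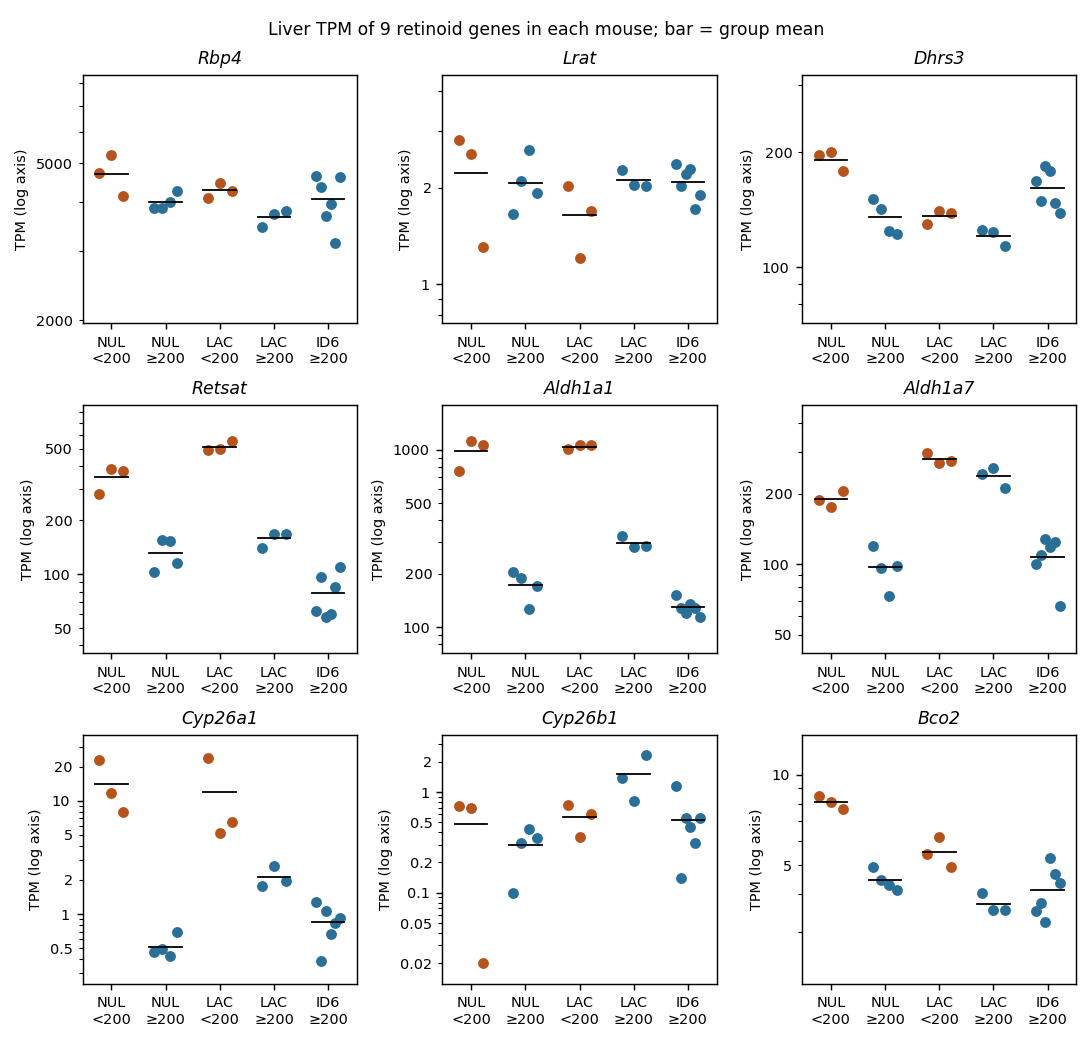
TPM of the 9 members in each of 19 mice on log axes, by stage and by animal number under 200 (orange) and 200 and above (blue), 1 point for each mouse and a line at each group mean. Aldh1a1, Retsat and Cyp26a1 separate by animal number, Aldh1a7 is higher in all 6 lactating mice (212 to 300 TPM) than in all others, and Rbp4 and Lrat overlap across stages.

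Cyp26a1, which clears retinoic acid, had the largest range of level among the members with a mean above 1 TPM and was higher in every mouse numbered under 200 than in every mouse at 200 and above. It lies at chr19:37697798-37701536 on the plus strand, directly after the sequence with the DR5 shown above. In mice numbered under 200 it was 22.6, 11.6 and 7.92 TPM in nulliparous and 23.8, 5.23 and 6.55 TPM in lactating livers, which overlapped. At 200 and above it was 0.46, 0.49, 0.43 and 0.69 TPM in nulliparous livers and 1.78, 2.64 and 1.96 TPM in lactating livers, which did not overlap, and 0.39 to 1.27 TPM at involution (median 0.885). Within that range the mean in lactation was 4.11 times the nulliparous mean (exact permutation p = 0.0286, the smallest for 3 against 4 mice) and the involution mean was 0.404 times that of lactation (exact permutation p = 0.0119).

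By limma-trend Cyp26a1 was 0.55 higher in lactation over all mice (SE 0.65, adjusted p = 0.670). At 200 and above it was 1.04 higher, with an adjusted p of 0.169 where the spread was shared with the lower-numbered mice (SE 0.42) and of 0.00191 where only mice numbered 200 and above were fitted (SE 0.15). Under 200 the difference was -0.40 (SE 0.45, adjusted p = 0.625), and the difference between ranges did not pass (1.43, SE 0.61, adjusted p = 0.340). From lactation to involution it was 1.64 lower over all mice (SE 0.68, adjusted p = 0.0887), fell by 0.76 (SE 0.14, adjusted p = 0.00289) among mice numbered 200 and above, and passed over all mice without NUL_1 (adjusted p = 0.04995). Over all mice no involution liver reached the lowest lactating liver (exact permutation p = 0.00216).

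Cyp26b1, the second enzyme of retinoic acid clearance, stayed near or under 1 TPM in most livers, a level at which the log2 scale with 1 added understates change. It lies at chr6:84571414-84593908 on the minus strand. It was 0.02 to 0.72 TPM in nulliparous mice (median 0.35), 0.36 to 2.31 TPM in lactating mice and 0.14 to 1.15 TPM at involution. At 200 and above the lactating livers had 1.38, 0.81 and 2.31 TPM, above the 0.10 to 0.43 TPM of nulliparous livers, and Cyp26b1 rose by 0.91 (SE 0.22, adjusted p = 0.0274). Under 200 the values overlapped (0.36 to 0.74 against 0.02 to 0.72 TPM) and the difference was 0.12 (adjusted p = 0.799). Over all mice the rise of 0.52 did not pass (SE 0.18, adjusted p = 0.0832), and it passed without LAC_102 (log2 0.63, adjusted p = 0.0490). It fell by 0.70 (SE 0.20, adjusted p = 0.0310) from lactation to involution among mice numbered 200 and above. The difference in its lactation change between ranges did not pass (0.79, SE 0.32, adjusted p = 0.317). Cyp26c1, the remaining member of that family, was at most 0.10 TPM.

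Bco2, the carotenoid cleaving enzyme of mitochondria, was low and followed the range. It lies at chr9:50533087-50555181 on the minus strand. Values were 7.68 to 8.47 TPM in nulliparous and 4.92 to 6.19 TPM in lactating mice under 200, and 4.13 to 4.94 and 3.55 to 4.04 TPM at 200 and above, so in both ranges the lactating livers lay below the nulliparous ones. Involution livers had 3.23 to 5.28 TPM. Under 200 Bco2 fell in lactation by 0.48 (SE 0.10, adjusted p = 0.0127). At 200 and above the difference was -0.21 (SE 0.09, adjusted p = 0.204), and over all mice it was -0.29 (adjusted p = 0.309). At its start Bco2 shares 355 bases of the map with Il18 on the opposite strand, which reached 22.6 TPM, and if strand was not used some reads cannot be assigned. Bco1, which cleaves beta-carotene at its centre, ran the other way with the range, with 4.77 to 8.03 TPM in the 6 mice under 200 and 8.68 to 15.1 TPM in the 13 at 200 and above. Its lactating livers lay above the nulliparous ones under 200 (6.88 to 8.03 against 4.77 to 6.06 TPM) and at 200 and above (13.5 to 15.1 against 8.68 to 11.6 TPM). Its lactation rise passed under 200 (log2 0.46) and, at 200 and above (0.39), only in the fit of those mice alone. Over all mice it did not pass (0.36).

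Set side by side, 1 of the 9 members passed between lactation and nulliparous, Aldh1a7, higher and called, where 2.72% of genes tested passed as higher, 6.49% as lower and 0.746% were called. From lactation to involution 3 of 9 passed and were called, all lower (Aldh1a1, Aldh1a7 and Retsat), where 4.73% passed as lower, 18.1% as higher and 1.93% were called. Between involution and nulliparous Retsat alone passed and was called, lower, where 0.912% passed as lower, 3.44% as higher and 0.253% were called. The median log2 difference of the 9 members was 0.52, -0.38 and -0.28 in these comparisons, and that of all genes -0.03, 0.10 and 0.07. These comparisons share groups of mice.

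**Figure D3:**
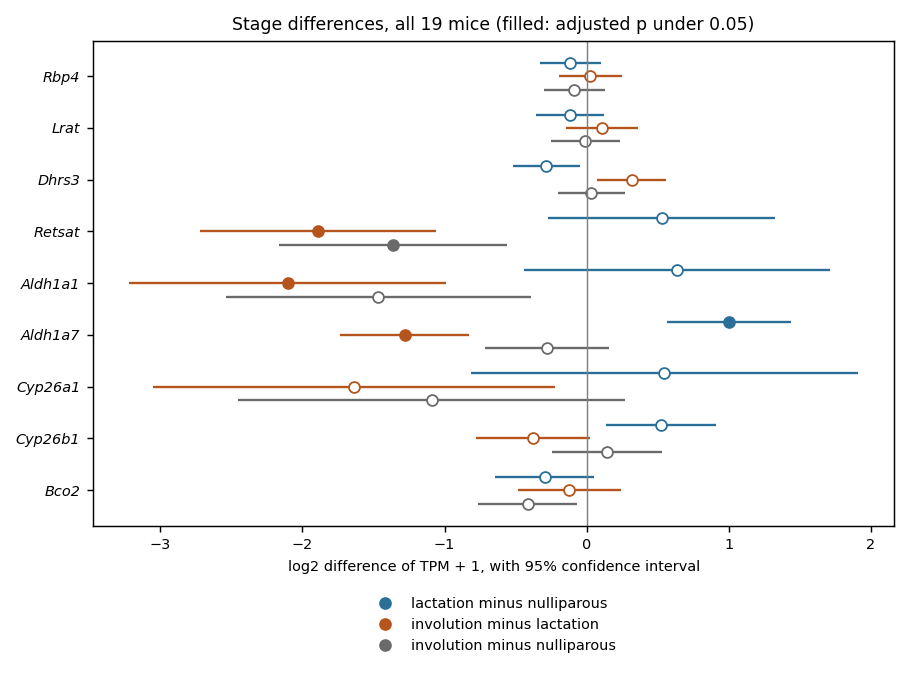
Log2 difference of TPM + 1 for each member in the 3 stage comparisons over all 19 mice, with 95% confidence intervals from limma-trend and filled circles for an adjusted p under 0.05. Aldh1a7 is filled in lactation at 1.001, and Aldh1a1, Aldh1a7 and Retsat are filled from lactation to involution at -2.10, -1.28 and -1.89.

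Within the lower numbers, Retsat and Aldh1a7 rose in lactation (2 of 9, against 4.22% of all genes) and Dhrs3 and Bco2 fell (2 of 9, against 4.82%). At 200 and above Aldh1a1, Aldh1a7 and Cyp26b1 rose (3 of 9, against 2.48%, with 4.58% of genes lower). In the fit of only those mice with all 3 stages, Cyp26a1 passed as well (4 of 9, against 2.61%, with 4.47% of genes lower). In that fit 5 of 9 fell from lactation to involution (Aldh1a1, Aldh1a7, Retsat, Cyp26a1 and Cyp26b1, against 3.54%) and Dhrs3 rose (against 10.6%). By limma-trend 0 of 9 passed between involution and nulliparous mice there, where 0.819% of genes passed. At an unadjusted p under 0.05 there were 4 of 9, and 1977 of all 16230 genes tested. The lactation change of 0 of 9 members differed between the ranges at an adjusted p under 0.05, where 18 genes of all tested did (0.111%). At an unadjusted p under 0.05 it differed for 5 of 9, each with the more positive change at 200 and above. The same held in either direction for 2161 of all 16230 genes tested.

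**Figure D4:**
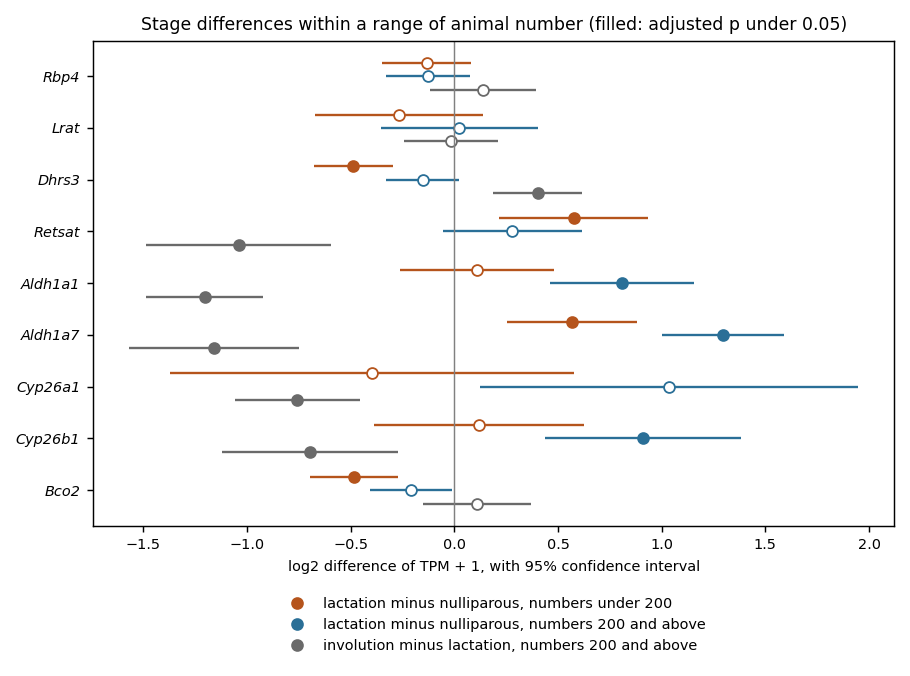
Log2 difference of TPM + 1 for each member between lactating and nulliparous mice numbered under 200 (orange) and 200 and above (blue), and between involution and lactating mice numbered 200 and above (grey), with 95% confidence intervals and filled circles for an adjusted p under 0.05. Aldh1a7 is filled in all 3 comparisons (0.57, 1.29 and -1.16), while Aldh1a1 and Cyp26b1 are filled only at 200 and above in this plot.

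Of 49 other genes of the pathway, 36 passed the filter on low values, and the receptor Stra6 and the dehydrogenase Rdh8 were listed at 0 in every mouse. In lactation 2 rose (Pnpla3 and Rdh11, where 2.72% of all genes rose) and 5 fell (Stra6l, Rdh7, Rdh9, Adh4 and Rdh1, the last with a mean below 1 TPM, where 6.49% of all genes fell), and 29 did not pass. From lactation to involution 9 rose (against 18.1%) and 4 fell (against 4.73%), and among mice numbered 200 and above 6 rose (against 10.6%) and 4 fell (against 3.54%). Between involution and nulliparous 2 rose (against 3.44%). The median log2 difference of the 36 genes was -0.08, 0.03 and 0.04 in the 3 comparisons.

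Several retinol dehydrogenases were among the genes that passed. Rdh11, which reduces retinal, was 23.9 to 41.0 TPM in nulliparous, 48.6 to 88.0 TPM in lactating and 17.5 to 32.1 TPM in involution mice. It rose by 1.15 in lactation (SE 0.16, adjusted p = 1.70e-04) and fell by 1.51 at involution (SE 0.16, adjusted p = 5.95e-06), with lactating livers above all others, and it passed in lactation within both ranges. Rdh9 went the other way, with 35.9 to 119 TPM in nulliparous and 14.5 to 33.0 TPM in lactating mice, a fall of 1.42 (SE 0.26, adjusted p = 0.00208), and rose by 1.17 at involution (SE 0.27, adjusted p = 0.00450). Rdh7, at 808 to 1372 TPM, fell by 0.35 in lactation (SE 0.07, adjusted p = 0.00373) and rose by 0.48 at involution (SE 0.07, adjusted p = 1.04e-04). Adh4, a retinol-oxidizing alcohol dehydrogenase, fell by 0.79 in lactation (SE 0.17, adjusted p = 0.00506). Rdh7, Rdh9 and Adh4 also passed in lactation within both ranges, and Rdh7, Rdh9 and Rdh11 passed from lactation to involution among mice numbered 200 and above. Rdh1, Rdh7, Rdh9 and Rdh16 are related genes, and reads they share could have been divided among them.

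Rdh16 followed the range of animal number as Aldh1a1 did, with 63.2 to 85.4 TPM in the 6 mice under 200 and 13.8 to 25.6 TPM in the 13 at 200 and above. It fell by 0.62 (SE 0.09, adjusted p = 5.67e-04) from lactation to involution among mice numbered 200 and above. Lipe, a hormone-sensitive lipase that also acts on retinyl esters, fell at involution by 0.61 (adjusted p = 0.00390). Relative to lactation, rises at involution of 0.31 in Aldh8a1 (adjusted p = 0.00595), of 0.23 in Rdh14 (adjusted p = 0.0138) and of 0.42 in Scarb1 (adjusted p = 0.0199), a lipoprotein and carotenoid receptor, also passed. Aldh8a1 was listed here under retinoic acid synthesis, and its activity on retinal was not measured. The median of all genes was itself 0.10 higher at involution on the TPM scale, and these rises are not given after median-ratio scaling. Among mice numbered 200 and above Scarb1 passed again (adjusted p = 0.0235), while Lipe (adjusted p = 0.136), Aldh8a1 (0.117) and Rdh14 (0.129) did not. Dhrs9, a retinol dehydrogenase, was 0.54 higher at involution than in nulliparous mice (adjusted p = 0.0280), and did not pass at 200 and above (0.57, adjusted p = 0.116).

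Of the 6 receptors, 0 passed in lactation over all mice by limma-trend. At an unadjusted p under 0.05 there was 1, Rarb, where 3748 of all 16230 genes tested were. From lactation to involution 1 receptor rose (against 18.1% of all genes) and 1 fell (against 4.73%). Rxra, the partner receptor, was 75.3 to 113 TPM in nulliparous, 72.8 to 90.5 TPM in lactating and 87.2 to 117 TPM in involution mice, and Rxra did not pass in any of the 3 comparisons (log2 -0.18, 0.27 and 0.09). At 200 and above Rxra fell by 0.34 in lactation where the spread was shared with the lower-numbered mice (SE 0.07, adjusted p = 0.0150). In that range the 3 lactating livers (79.4, 79.7 and 90.5 TPM) lay below the 4 nulliparous livers (98.1 to 113 TPM). In the fit of only mice numbered 200 and above, 0 of the 6 receptors passed in lactation, so Rxra did not pass there. Rara did not pass either (-0.18, 0.25 and 0.07). Rarb, itself a gene known to be induced by retinoic acid, was 0.31 higher in lactation (adjusted p = 0.101) and fell by 0.41 at involution (adjusted p = 0.0190), and Rarg rose by 0.47 at involution (adjusted p = 0.00356). Among mice numbered 200 and above Rarg passed again (adjusted p = 0.00727) and Rarb did not (adjusted p = 0.0655). Of 5 genes known to be induced by retinoic acid, 3 were tested (Rarb, Tgm2 and Nrip1), and these did not pass in lactation over all mice by limma-trend, with Tgm2, a transglutaminase, at a log2 difference of -0.33 (adjusted p = 0.0781). Tgm2 fell by 0.46 at 200 and above (adjusted p = 0.0464). From lactation to involution Tgm2 rose by 0.59 (adjusted p = 0.00159) and Rarb fell. Cyp26a1, a target gene named above, is a member and was not counted among the 5. In lactation Cyp26a1 did not pass over all mice, and by limma-trend it passed in the fit of only mice numbered 200 and above (log2 1.04, adjusted p = 0.00191).

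**Figure D5:**
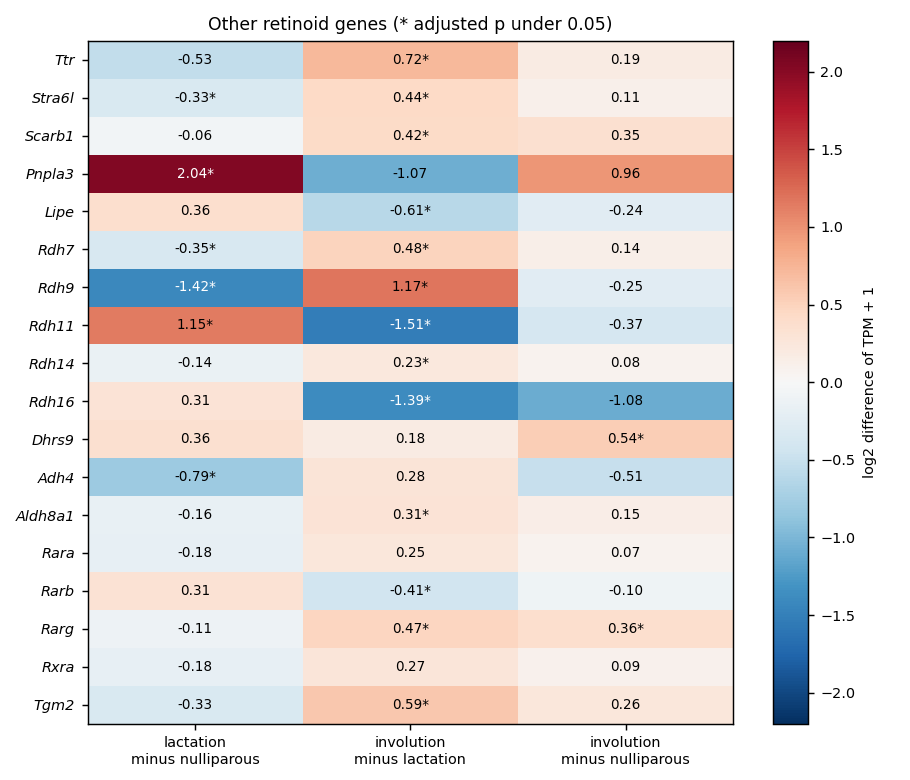
Log2 difference of TPM + 1 over all 19 mice for 18 other genes of the retinoid pathway in 3 stage comparisons, in order of role, with colour and printed value, and an asterisk for an adjusted p under 0.05 by limma-trend. Rdh11 and Rdh9 move in opposite directions, at 1.15 and -1.42 in lactation and -1.51 and 1.17 at involution.

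Markers of other liver cells moved with the stages beside these genes, and their part in the results was not tested. For comparison, 6.49% of all genes were lower in lactation (4.82% under 200 and 4.58% at 200 and above) and 2.72% were higher. An unadjusted p under 0.05 in lactation was found for 3748 of the 16230 genes tested. At involution 18.1% of all genes were higher than in lactation. The summed TPM of 6 Kupffer cell markers was 149 to 286 in nulliparous, 96.5 to 204 in lactating and 329 to 471 in involution mice, with 5 of 6 lower in lactation (3 of 6 under 200 and 5 of 6 at 200 and above) and 6 of 6 higher at involution than in lactation. With stage in the fit 5 of 6 were lower under 200 (against 16.5% of all genes). Nulliparous sums were 149 to 190 TPM under 200 and 236 to 286 TPM at 200 and above. Sinusoidal endothelial markers summed to 162 to 202, 86.8 to 157 and 210 to 233 TPM. Of these 7 markers, 3 were lower in lactation (2 under 200 and 1 at 200 and above) and 4 higher at involution than in lactation. Markers of hepatocytes near the central vein summed to 3019 to 7696, 1461 to 4209 and 2517 to 4446 TPM, with 3 of 7 lower in lactation (2 under 200 and 4 at 200 and above). That sum, most of it Cyp2e1, also differed by range, with 5732 to 7696 TPM in nulliparous mice under 200 and 3019 to 4801 TPM at 200 and above. The 7 markers did not move together. With stage in the fit 4 were higher under 200 (against 9.11% of all genes), 1 was lower (against 16.5%) and 2 did not pass. Glul ran the other way, with 237 to 283 TPM in nulliparous mice under 200 and 298 to 424 TPM at 200 and above. Of 6 general hepatocyte markers, Alb rose in lactation (log2 0.86, adjusted p = 0.00137) and the others did not pass, and the sum, 61641 to 96262 TPM in nulliparous and 103434 to 154823 TPM in lactating mice, was the highest of the marker sums in every group. Cholangiocyte markers summed to 19.4 to 47.7 TPM over all mice (1 of 5 lower in lactation), mesothelial and portal fibroblast markers to 2.56 to 5.36 TPM (0 of 5 passed by limma-trend in lactation, 1 at an unadjusted p under 0.05), adipocyte markers to 0.82 to 20.6 TPM (0 of 4 tested passed by limma-trend in lactation, 1 at an unadjusted p under 0.05), and pancreas markers to 4.85 to 41.9 TPM (1 of 6, Cela1, lower in lactation). Cela1 alone, at 4.85 to 41.8 TPM, made up most of the pancreas sum except in LAC_133. Prss2, Cela2a, Cpa1 and Pnlip were highest in LAC_133 (3.54, 3.90, 1.98 and 2.79 TPM), then in LAC_36 (1.24, 0.77, 0.75 and 0.73 TPM). In the other mice they were at most 0.49 TPM, so the fall of Cela1 was not shared by these markers.

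The genes with the most similar pattern over the 19 mice were ranked by Pearson's r of log2(TPM + 1) among 10737 named genes averaging 1 TPM or more. The mice fall into separate groups by stage and range, so these values describe shared group levels, and r after each group's mean was removed is given beside them. For Aldh1a1 the nearest were Rdh16 (r = 0.986, and 0.566 within groups), Pgrmc1 (0.974) and Suclg1 (0.969). For Retsat they were Acot1 (0.9748), Cyp4a14 (0.9747, and 0.796 within groups) and Cyp4a10 (0.965), for Cyp26a1 Cyp3a11 (0.936, and 0.198 within groups), Ethe1 (0.927) and Mup10 (0.921), and for Aldh1a7 Gstm4 (0.957, and 0.679 within groups), Thnsl2 (0.946) and Emc9 (0.927). Bco2 was nearest to Enpp5 (0.959, and 0.906 within groups), Rfx4 (0.949) and Car3 (0.940), and Dhrs3 to C8g (0.893, and 0.750 within groups), Ttc36 (0.874) and Ndufb9 (0.854). The highest r was lower for the other 3 members: Rbp4 with Nfkbia (0.782), Cyp2d26 (0.782) and Pon1 (0.778), Cyp26b1 with Igf2 (0.737), Pglyrp2 (0.698) and Scd2 (0.684), and Lrat with Rhod (0.646), Ldhb (0.626) and Fgf21 (0.616). Among the members, Aldh1a1 and Retsat had r = 0.932 over the 19 mice and -0.195 within groups, and Aldh1a1 and Cyp26a1 had 0.896 and -0.302.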

How the data were processed

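Liver RNA of 19 mice was sequenced as poly(A)-selected libraries with paired reads. The authors aligned them to GRCm38, quantified genes with RSEM 1.3.1, and deposited TPM with 2 decimals. TPM keep no depth, so precision is known only from the spread between mice, and low TPM are the least certain. The aligner and the use of strand are not given in the sources used here, and the authors' test on counts was not repeated. Groups came from the sample titles, and each sample is a separate mouse by its number. Among 171 pairs of mice, 0 had identical values.

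limma-trend (limma 3.58.1, R 4.3.3) was run on log2(TPM + 1) with 1 mean per stage, Benjamini-Hochberg adjustment over 16230 genes averaging 0.1 TPM or more, and separate fits with animal number (under 200, or 200 and above). Single genes were also compared by two-sided exact permutation of mean TPM, unadjusted. Members, gene lists, ranges and tests were chosen with earlier results of these data known. Named genes are the 9 members, pathway genes averaging 1 TPM or more that passed in a stage comparison, plus Rxra, Rara, Ttr and Stra6l, and the 3 genes most alike to each member. Another gene of the pathway list is not reported here. Bco1, Cyp26c1, Nrip1, Rdh1, Rdh8, Stra6 and the marker genes named fall outside this rule and were chosen after their values were seen. Positions are from GENCODE M21 on GRCm38. On simulated data 195 of 200 genes changed by 1.5 on the log2 scale in lactation were recovered and 13 unchanged genes passed. The simulated mice had independent noise with no ranges of animal number, and the changed genes averaged 1 TPM or more. Recovery of smaller changes, or of a gene as low as Cyp26b1, was not tested. Alternatives were other pseudocounts, filters, scalings, robust moderation, fits of fewer mice and single mice left out. Figures were drawn in Python 3.11.15.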

Additional observations from a re-analysis of the deposited data

Results flagged for a closer look

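Among 27 groups of a member and a stage, 1 had a mouse far from the others by Dixon's criterion. Mouse LAC_36 had 23.8 TPM of Cyp26a1, the next highest lactating mouse 6.55 TPM, and the gap was 0.783 of the whole range of the 6 mice. Chance flags about 1 in 20 groups. Mouse NUL_1, also numbered under 200, had 22.6 TPM. Without LAC_36, the log2 difference of Cyp26a1 between lactation and nulliparous mice was 0.12 by limma-trend (adjusted p = 0.937).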

How the results depend on the processing

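No paired analysis was possible because the groups share no replicate numbers. Of single gene differences, 235 under other settings and 483 with 1 mouse left out kept direction and side of the threshold, while 14 and 11 turned in sign, 12 and 7 newly passed and 6 and 12 no longer passed. By exact permutation of mean TPM or of the Aldh1a sum, unadjusted, 27 stayed on their side and 3 had a p under 0.05 that did not pass by limma-trend. Between lactation and nulliparous mice 1 member passed and was called, and 9.21% of all genes tested passed. With the range of animal number as a covariate 4 members passed, 0 were called and 15.7% of genes passed, and with only mice numbered 200 and above 4 passed and 2 were called. Without a filter 4.66% of genes passed. With single mice left out, 1 to 2 members passed, 0 to 1 were called and 6.52 to 9.72% of genes passed.

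Between involution and lactation 3 members passed and 22.8% of genes did (12.5% without a filter). With only the 2 groups 5 members passed, and with only mice numbered 200 and above 6 members and 14.1% of genes. With single mice left out, 3 to 5 members passed, 3 to 4 were called and 17.5 to 23.8% of genes passed. Between involution and nulliparous mice 1 member passed and was called, and 4.36% of genes passed (6.60% at a mean of at least 1 TPM). That became 0 members under a pseudocount of 0.1, no filter (1.40% of genes), median-ratio scaling (2.34%), quantile normalization (2.61%), robust moderation and only mice numbered 200 and above (0.819%), and 0 called with the covariate (1.57%). With single mice left out it was 0 to 1 members, 0 to 1 called and 1.51 to 9.16% of genes. The lactation change differed between ranges for 0 members and levels did for 7, and 0 and 6 to 7 with single mice left out.

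The differences that turned in sign did not pass in either fit. Between lactation and nulliparous mice these were Rbp4 with quantile normalization (0.11) and Lrat at 200 and above (0.024). Between involution and lactation they were Rbp4 with median-ratio scaling (-0.14), with quantile normalization (-0.19) and with single mice left out (-0.015 to 0.098), Lrat with quantile normalization (-0.016) and at 200 and above (-0.015), and Bco2 with the covariate (0.18) and at 200 and above (0.11). Between involution and nulliparous mice they were Dhrs3 with median-ratio scaling (-0.076) and single mice left out (-0.027 to 0.091), Lrat at 200 and above (0.0096) and single mice left out (-0.079 to 0.041), Rbp4 with the covariate (0.011) and at 200 and above (0.012), and Cyp26a1 (0.28, from -1.09 over all mice) and Aldh1a7 (0.14) at 200 and above. The difference between ranges in the lactation change of Rbp4 was -0.076 to 0.096 with single mice left out. The cause of these shifts was not tested. Depth is unknown in TPM, which limits Lrat, Cyp26b1 and Bco2 most, and 3 against 3 mice cannot give an exact permutation p under 0.1.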
